A study of Mus musculus with 7 samples.

Results

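AW112010 (ENSMUSG00000075010) is 1 of the 32285 mouse genes counted in 7 single-cell RNA libraries of whole brain tumours. It was chosen by its symbol, with its pattern over cell classes in these data already known, so its own levels, folds and correlations are a description and carry no test. The tumours came from NSCG-mCherry cells, labelled EGFRvIII+ and Arf/Ink4a-/-, in C57BL/6 hosts aged 7 to 10 weeks that carry a WT genotype label. At least 2 mice were pooled per library, day 14 is given as the approximate time, and 6000 cells were aimed for. The UT group (1 library) is labelled as a control and carries no named agent. The IgG group (2 libraries) is labelled control and received IgG2b isotype antibody at 10 mg/kg, which in the IPI-145 experiment went together with the gavage diluent. The BP group (2 libraries) received anti-PD-L1 at 10 mg/kg together with B20, which the labels call anti-VEGF, at 5 mg/kg. The BPI group (1 library) received the same antibodies and IPI-145, an inhibitor of the delta and gamma forms of phosphoinositide 3-kinase, at 10 mg/kg by daily gavage. The CD40 group (1 library) received 2 doses of a CD40 agonist antibody at 100 µg per dose, and the labels leave unstated whether a dendritic cell vaccine was added.

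AW112010 is annotated as a long non-coding RNA. In mouse immune cells it is known as a transcript induced by interferons and by bacterial lipopolysaccharide, and a non-canonical reading frame in it has been reported to be translated in macrophages. It has been linked to the production of the cytokines IL-12 and IL-10. Interferon-gamma, made mainly by activated T cells and NK cells, signals through a receptor of Ifngr1 and Ifngr2, and the genes it induces include Irf1, the guanylate-binding proteins, Cxcl9 and the genes of antigen presentation.

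On build GRCm38 (GENCODE vM21) the gene lies on the minus strand of chromosome 19, from 11047612 to 11055808, and is typed lincRNA. It has 2 annotated transcripts of 3 exons each. AW112010-201 spans 11047617 to 11050566 with exons of 179, 114 and 477 bases, and AW112010-202 spans 11047612 to 11055808 with exons of 29, 114 and 482 bases. The same 114-base exon is in both, and the first exons lie apart. The counts were given per gene, so the transcripts were not told apart here. The window around the start of AW112010-201 is shown because it is compared below with those of interferon response genes. It holds 250 bases before the start and 50 from it, chr19:11050517-11050816, minus strand, from RefSeq on GRCm38.p6, with the match to the NF-kappaB consensus in capitals.
AW112010 promoter: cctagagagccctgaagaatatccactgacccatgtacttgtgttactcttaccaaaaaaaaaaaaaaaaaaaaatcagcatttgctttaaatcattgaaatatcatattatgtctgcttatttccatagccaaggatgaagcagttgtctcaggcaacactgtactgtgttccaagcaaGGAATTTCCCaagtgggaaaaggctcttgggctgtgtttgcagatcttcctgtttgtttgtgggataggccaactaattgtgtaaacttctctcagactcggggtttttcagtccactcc

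The window held no match, on either strand, to the gamma-activated site palindrome TTCNNNGAA, a form known from genes induced by interferon-gamma, or to the interferon-stimulated response element core GAAANNGAAA. The palindrome was found in 2726 of 32851 promoters of the same length (8.30%). Of a list of 40 interferon-gamma response genes, 28 had such a promoter, and 12 of these 28 genes held the palindrome (42.9%). A gene counted if any of its promoters matched, so the list share is per gene and the other per promoter. They are unlike measures, for the motifs below too. The response element core was found in 1131 promoters (3.44%) and in 11 of those 28 (39.3%). The NF-kappaB consensus, searched on both strands after the promoter had been read, had 1 match in AW112010, 70 to 61 bases before the start (11050627 to 11050636). It was found in 3671 promoters (11.2%) and in 9 of those 28 (32.1%). A match is a string of letters and no measured binding site, and the absence of one covers only these letters in this window.

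The libraries held 68997476 to 186793886 UMIs (unique molecular identifiers, 1 per captured RNA molecule). After filters and doublet removal 48588 cells were kept, 5373 to 9650 per library. A class is called "-like" because it was named here from marker genes. T-like clusters had 7 of 7 markers at 20 CPM (UMIs per 1000000 UMIs of the class) or more in all 7 libraries, NK-like clusters 7 or 8 of 8, monocyte/macrophage-like clusters 8 of 8 and microglia-like clusters 8 or 9 of 9. Tumour-like clusters had 3 of 11 markers at that level in IgG replicate 1, BP replicate 2 and BPI, and 9 or 10 in the other 4 libraries. Any comparison of tumour-like cells thus sets libraries of different marker profile side by side. Dendritic-like cells had 4 of 7, with 1 marker at 0 in UT and 2 in BP replicate 1, so both names rest on part of their lists. Any pair of libraries shared 0 to 26 cell barcodes. The barcodes of UT come from a list that the other 6 libraries do not use, although the labels give V2 chemistry for all, so chemistry and group cannot be told apart there, and it enters no fit.

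AW112010 was found in T-like and NK-like cells in every library and at a comparable level in myeloid cells in some. NK-like cells had the highest level of any named class in each of the 6 libraries with at least 20 of them, followed by T-like cells. Monocyte/macrophage-like cells ranged from 37.7 CPM in an IgG library to 2267 CPM in UT. Microglia-like cells were lower, and tumour-like cells lower still, in 4 of 7 libraries no higher than the estimate for free RNA in the droplets.

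In NK-like cells AW112010 stood at 5506 CPM in UT, 3531 in IgG replicate 1, 3100 in BP replicate 1, 4272 in BP replicate 2, 4992 in BPI and 2839 in CD40. The mean was 4040 ± 1067 CPM (SD, n = 6), and CD40 was the lowest and UT the highest of the 6. IgG replicate 2 had only 16 NK-like cells, with 3139 CPM. NK-like cells were above T-like cells in 6 of 6 libraries, by 2.05 to 2.97 times, with exact 95% Poisson intervals apart in all 6. With each cell thinned to 1000 UMIs, 83.7% to 97.6% of NK-like cells in these libraries held a UMI of the gene, and 95.3% to 100% unthinned, at median depths of 1890 to 4553 UMIs.

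In T-like cells the level was 2551 CPM in UT, 1188 in IgG replicate 1, 457 in IgG replicate 2, 1406 in BP replicate 1, 1980 in BP replicate 2, 2378 in BPI and 1385 in CD40. Both IgG libraries were the lowest, and IgG replicate 2 stood below all others, on 57 cells and 99 UMIs of the gene (interval 371 to 556 CPM). The mean was 1621 ± 732 CPM (SD, n = 7). After thinning, 29.8% of T-like cells in IgG replicate 2 and 57.4% to 76.3% in the other libraries held a UMI, against 49.1% and 79.5% to 92.4% unthinned.

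**Figure D1:**
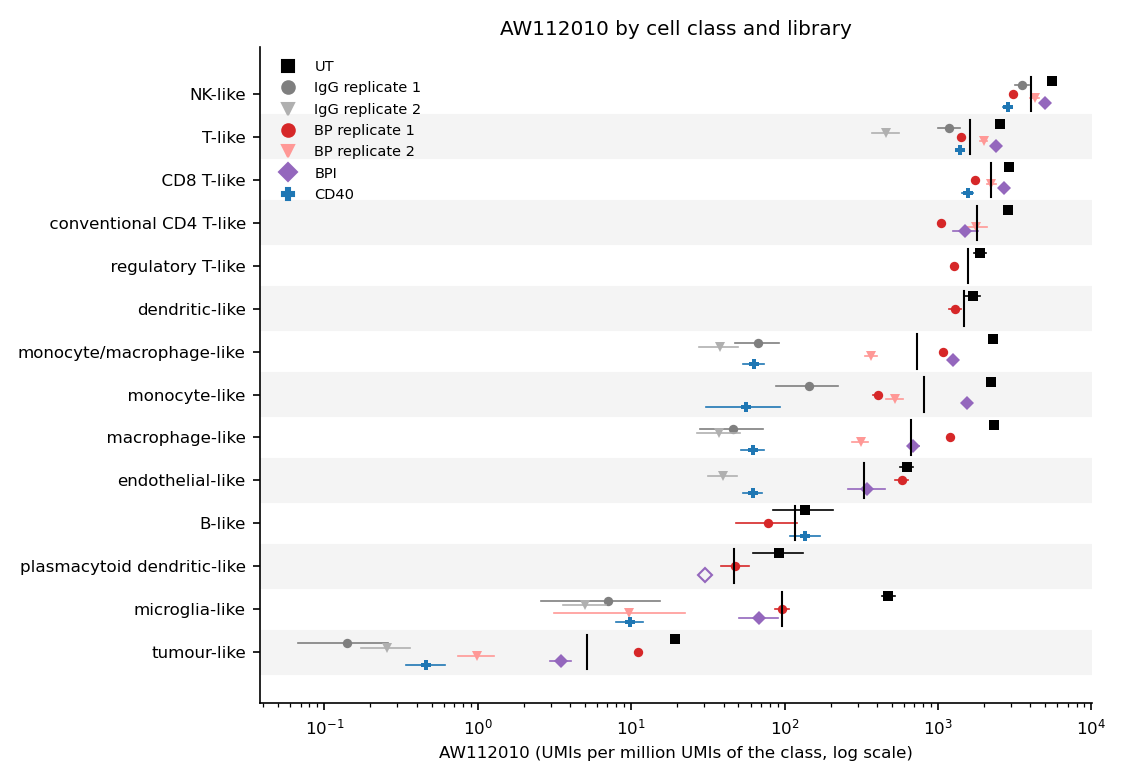
AW112010 in CPM of the class (horizontal log axis) by cell class, 1 point per library with at least 20 cells of the class, with marker and colour giving the library. NK-like cells lie between 2839 and 5506 CPM, while monocyte/macrophage-like cells spread from 37.7 to 2267 CPM and tumour-like cells stay at or below 19.4 CPM.

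T-like cells were divided by the transcripts that define subsets. CD8 T-like cells, with a Cd8a or Cd8b1 UMI and none of Cd4 or Foxp3, had 2908 CPM in UT, 1736 in BP replicate 1, 2230.0 in BP replicate 2, 2712 in BPI and 1566 in CD40. Their mean was 2230 ± 587 CPM (SD, n = 5). Conventional CD4 T-like cells, with Cd4 and neither Cd8 nor Foxp3, had 2840 CPM in UT, 1051 in BP replicate 1, 1757 in BP replicate 2 and 1510.0 in BPI (mean 1789 ± 759, SD, n = 4). CD8 cells were above conventional CD4 cells in 4 of 4 libraries, by 1.02 to 1.80 times, and the Poisson intervals were apart in 3 of them, UT being the exception.

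Regulatory T-like cells, with a UMI of Foxp3, the transcription factor that defines them, had 1869 CPM in UT and 1265 in BP replicate 1. They were below CD8 cells in both libraries, with intervals apart. The IgG libraries had 13 or fewer cells per gated subset, so no subset could be compared between IgG and treatment. The gates read single UMIs, and shallow cells without one stayed ungated, at 454 to 1899 CPM in the 6 libraries with at least 20 of them.

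Monocyte/macrophage-like cells had 2267 CPM in UT, 67.1 in IgG replicate 1, 37.7 in IgG replicate 2, 1072 in BP replicate 1, 366 in BP replicate 2, 1245 in BPI and 63.0 in CD40. The libraries fell apart widely. UT, BPI and both BP libraries were above both IgG libraries, and CD40 lay between the IgG libraries. The interval of CD40, 53.6 to 73.6 CPM, fell within the 47.7 to 91.8 CPM of IgG replicate 1. The share of cells with a UMI after thinning was 69.4% in UT, 53.1% in BPI, 49.2% and 27.5% in the BP libraries, 7.89% and 1.67% in the IgG libraries and 7.33% in CD40. Unthinned it was 19.7% to 89.2%. In tumour-like cells, set beside these as a low class, the thinned share was 0% to 2.22%. Their median depths were 10571 to 21573 UMIs against 4680.5 to 15942 in monocyte/macrophage-like cells. In UT and BP replicate 1 the tumour-like level was mostly above the free RNA estimate given below, so this share is not shown to be background. T-like cells were above monocyte/macrophage-like cells in 7 of 7 libraries, by 1.12 times in UT, 1.31 in BP replicate 1, 1.91 in BPI and 5.41 in BP replicate 2. The ratio was 17.7 and 12.1 in the IgG libraries and 22.0 in CD40.

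Within this class, monocyte-like and macrophage-like cells had no fixed order. Monocyte-like cells, marked by Ly6c2 and Plac8, had 2204 CPM in UT, 143 in IgG replicate 1, 403 in BP replicate 1, 522 in BP replicate 2, 1544 in BPI and 55.9 in CD40. Macrophage-like cells had 2305, 46.5, 1205, 313, 691 and 62.5 CPM in the same libraries. Both were named by cluster, from the larger share of raised markers on a list. The complement gene C1qa was 994 to 5877 CPM in macrophage-like clusters and 10.8 to 541.5 in monocyte-like ones. Mrc1 did not separate them, at 6.62 CPM in 1 macrophage-like cluster and 977 in 1 monocyte-like cluster. Chil3, a marker on the monocyte list, did not either, and its highest value was in a macrophage-like cluster. It was 8.81 to 6339 CPM in macrophage-like clusters and 193 to 1715 in monocyte-like ones. Ly6c2 reached 1488 CPM in 1 macrophage-like cluster, beside 1523 in 1 monocyte-like cluster, so the groups are partly mixed. Monocytes were higher in IgG replicate 1, BP replicate 2 and BPI and macrophages in BP replicate 1, with intervals apart, while UT and CD40 showed overlapping intervals. Dendritic-like cells had 1683 CPM in UT (26 cells) and 1289 in BP replicate 1 (58 cells). Plasmacytoid dendritic-like cells had 92.4 CPM in UT and 47.6 in BP replicate 1, and the 34 cells of BPI held no UMI of the gene.

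Microglia-like cells, the resident macrophages of the brain marked by P2ry12 and Tmem119, had 476 CPM in UT, 7.08 and 5.04 in the IgG libraries, 96.1 in BP replicate 1, 9.66 in BP replicate 2, 68.6 in BPI and 9.83 in CD40. They were below monocyte/macrophage-like cells in 7 of 7 libraries, by 4.77 to 18.2 times in 6 of them. No fold is given for BP replicate 2, where the microglia-like level was no higher than the estimate for free RNA. UT, BP replicate 1 and BPI stood above the other 4 libraries, which lay within 5.04 to 9.83 CPM. Endothelial-like cells had 624 CPM in UT, 39.6 in IgG replicate 2, 579 in BP replicate 1, 346 in BPI and 61.9 in CD40.

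B-like cells were found in numbers above 20 in 3 libraries and had 135 CPM in UT (40 cells), 78.5 in BP replicate 1 (52 cells) and 137 in CD40 (57 cells). Tumour-like cells had 19.4 CPM in UT, 0.141 and 0.257 in the IgG libraries, 11.1 and 0.987 in the BP libraries, 3.49 in BPI and 0.463 in CD40. After thinning, 0 of the 4434 tumour-like cells of IgG replicate 1 held a UMI, which allows a share of up to 0.0832% of cells with a UMI at 1000 UMIs (exact Clopper-Pearson).

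Free RNA was measured in barcodes with 1 to 100 UMIs. AW112010 was 482 CPM there in UT, 13.8 and 5.37 in the IgG libraries, 346 and 66.5 in the BP libraries, 293 in BPI and 25.8 in CD40. The part of a class's level that free RNA can give was estimated from the marker list, of another cell type, that was lowest in the class relative to its level in free RNA. It came to at most 0.450% of the level in T-like cells, 0.303% in NK-like cells and 2.17% in monocyte/macrophage-like cells. In tumour-like cells it was 3.90% in UT, 32.6% in BP replicate 1, 69.7% in IgG replicate 2 and 116% to 168% in the other 4 libraries, so in those 4 the level was no higher than the estimate for free RNA. In microglia-like cells it was 58.8% in IgG replicate 1, 104% in BP replicate 2, 29.3% in BPI and 0.411% to 5.88% elsewhere. In B-like cells it was 53.5% in UT and 21.4% in BP replicate 1, against 1.65% in CD40. For the plasmacytoid dendritic-like cells of UT it was 69.2%, which leaves 28.4 of their 92.4 CPM.

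The means below are taken over different sets of libraries, since a class needs 20 cells, and the regulatory T-like and dendritic-like means cover only UT and BP replicate 1. By mean level, NK-like cells (4040 ± 1067) lay above CD8 T-like cells (2230 ± 587) by more than the SD of either. CD8, conventional CD4, all T-like (1621 ± 732), regulatory T-like (1567 ± 427, n = 2) and dendritic-like cells (1486 ± 278, n = 2) followed, each within 1 SD of its neighbour. Monocyte-like (812 ± 865), macrophage-like (666 ± 841), endothelial-like (330 ± 276), B-like (117 ± 33.0), microglia-like (96.0 ± 171) and plasmacytoid dendritic-like cells (46.6 ± 46.2) came next. With 1 library left out the mean was 32.7 to 111 CPM in microglia-like and 23.8 to 70 in plasmacytoid dendritic-like cells. The latter was higher still with doublets kept. Tumour-like cells were last of the classes ranked here, at 5.12 ± 7.41 CPM (SD, n = 7). Mural-, oligodendrocyte- and astrocyte-like cells, found in 2, 2 and 1 libraries with means of 2.96, 1.15 and 0 CPM, were not ranked. From dendritic-like cells downwards, the gap between each mean and the next was smaller than the larger SD of the pair. These SDs are between libraries, while classes share libraries, so they do not bear on differences within a library. Microglia-like cells were above plasmacytoid dendritic-like cells in UT (476 against 92.4 CPM), BP replicate 1 (96.1 against 47.6) and BPI (68.6 against 0). B-like cells were below microglia-like cells in BP replicate 1 (78.5 against 96.1) and above them in CD40 (137 against 9.83). Within UT the order was NK-like, T-like, monocyte/macrophage-like, dendritic-like, endothelial-like, microglia-like, B-like, plasmacytoid dendritic-like and tumour-like cells, so there B-like cells (135 CPM) were below microglia-like cells (476 CPM). Microglia-like cells were above tumour-like cells by 24.5 times in UT and 8.63 times in BP replicate 1, the libraries in which the tumour-like level was mostly above the free RNA estimate.

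The classes that held the UMIs of AW112010 differed between libraries for a further reason, the makeup of the sample. T-like and NK-like cells together made up 1.38% and 0.974% of the cells kept in the IgG libraries and held 90.0% and 55.0% of the UMIs of the gene in kept cells. In UT they were 7.43% of cells and held 31.4%, while monocyte/macrophage-like cells, 10.2% of cells, held 56.4%. In the BP libraries T-like and NK-like cells held 51.6% and 78.9%, in BPI 65.1% and in CD40 74.7%. The endothelial-like cells of IgG replicate 2 held 18.3% and those of CD40 8.32%. Tumour-like cells were 48.7% to 78.7% of cells and held 1.35% to 6.29% of the UMIs. Taken over all barcodes of a library, AW112010 was 337 CPM in UT, 7.66 and 3.66 in IgG, 287 and 51.7 in BP, 222 in BPI and 20.7 in CD40, a sum in which more cells of a class and more RNA per cell are mixed.

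**Figure D2:**
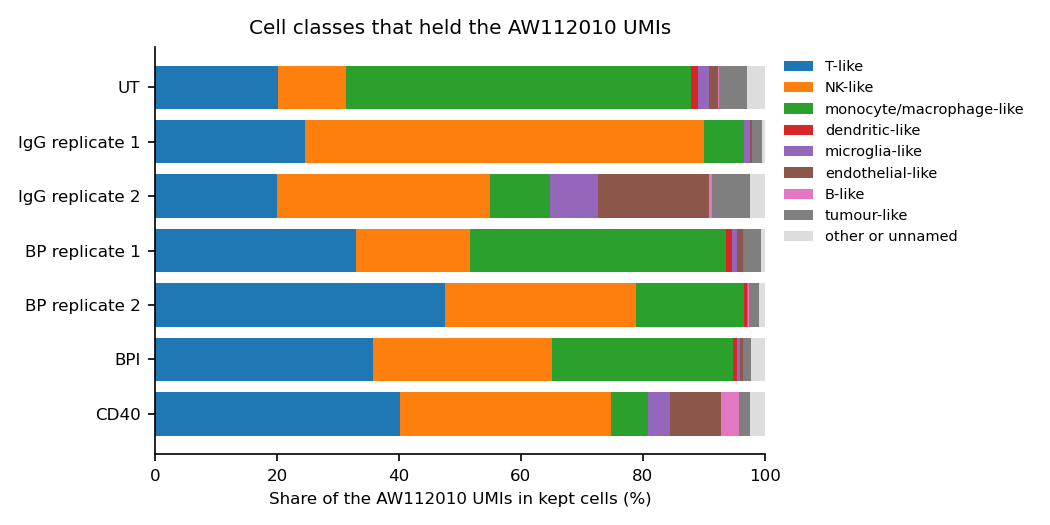
Share (%) of the AW112010 UMIs in kept cells that each cell class held, 1 bar per library, with grey for other or unnamed cells. Monocyte/macrophage-like cells hold 56.4% of the UMIs in UT and 6.60% in IgG replicate 1, where NK-like cells hold 65.5%.

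To find the genes that AW112010 follows across single cells, a partial Pearson correlation given the UMIs per cell was computed within each library and class and averaged over libraries. The cells of a library share its free RNA, its mix of subsets and its depth, so these r values describe and carry no p. In T-like cells (2576 cells, 6 libraries, 3144 genes) the highest mean r was that of Nkg7, a protein of cytotoxic granules, at 0.389 (0.327 to 0.532 over libraries). Ctla2a (0.382), the class I heavy chain H2-D1 (0.368), Cd52 (0.364), Plac8 (0.358), Ly6a (0.349), the protease Ctsw (0.341), H2-K1 (0.336), Tmsb4x (0.331) and S100a6 (0.326) followed. The lowest were Aff3 (-0.328), Bach2 (-0.322) and Foxp1 (-0.295), and Bach2 and Foxp1 encode transcription factors known to keep T cells in a resting state.

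Over all genes in T-like cells the median r was 0.00571, with 90% of genes between the 5th percentile of -0.0889 and the 95th of 0.143. Of 11 T and NK effector genes, 9 had a value, all 9 above 0 and 6 above the 95th percentile (median 0.238), among them granzyme B, Gzmb, at 0.238. Of 8 genes of resting and recirculating T cells, 7 had a value and none was above 0 (median -0.237), with Tcf7 at -0.271, Ccr7 at -0.237 and Klf2 at -0.207. Interferon-gamma response genes had a median of 0.0950 with 25 of 25 above 0, and type I interferon response genes 0.142 with 14 of 14, against 53.8% of all genes. With cells thinned, Icam1 (-0.0191), Nlrc5 (-0.0126) and Irf8 (-0.00662) of the first list fell below 0 and its other members stayed above it. Ifng itself had r of 0.111, Isg15 0.218 and Irf1 0.0217.

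In NK-like cells (1061 cells, 5 libraries, 3428 genes) the chemokine Ccl5 came first at 0.312 (0.173 to 0.516), then the adaptor Tyrobp (0.306), the granzymes Gzma (0.296) and Gzmb (0.264), and H2-D1 (0.294). B2m (0.264), Tpt1 (0.247), H2-K1 (0.235), Tmsb4x (0.224) and Nkg7 (0.223) completed the first 10, and Kcnq1ot1 (-0.185), mt-Nd1 (-0.179) and Ell2 (-0.176) were lowest. H2-D1, H2-K1, Nkg7 and Tmsb4x were among the first 10 in T-like cells too. The interferon-gamma response list had 23 of 27 members above 0 (median 0.0625) and the type I list 14 of 14 (median 0.103), against 48.3% of all genes.

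Monocyte/macrophage-like cells (3402 cells, 7 libraries, 3227 genes) gave a set of interferon-inducible genes. The surface protein Ly6a led at 0.381 (0.141 to 0.528), before H2-K1 (0.327), B2m (0.324), complement factor B, Cfb (0.322, 0.236 to 0.425), H2-T23 (0.293) and Acod1, which makes itaconate (0.282). The immunoproteasome subunit Psmb8 (0.280), Fgl2 (0.270) and Cxcl9 (0.266) followed, and Cxcl9 ranged from -0.0713 to 0.502 over libraries. The lowest were Alcam (-0.184), Arhgap26 (-0.181) and Fam129b (-0.173). Of the 40 interferon-gamma response genes 33 had a value, all 33 above 0 and 28 above the 95th percentile of all genes (0.113), with a median of 0.194. The type I list had 22 of 22 above 0 and 20 above that percentile, with a median of 0.157, and 44.8% of all genes were above 0.

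Among genes of the pathway in these cells, H2-Aa, a class II chain, had r of 0.235, Isg15 0.213, Gbp2 0.194 and Cd274, which encodes PD-L1, 0.145, while Irf1 had 0.0347 and the receptor chain Ifngr1 -0.0294. The medians of the 2 interferon lists lay close together.

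**Figure D3:**
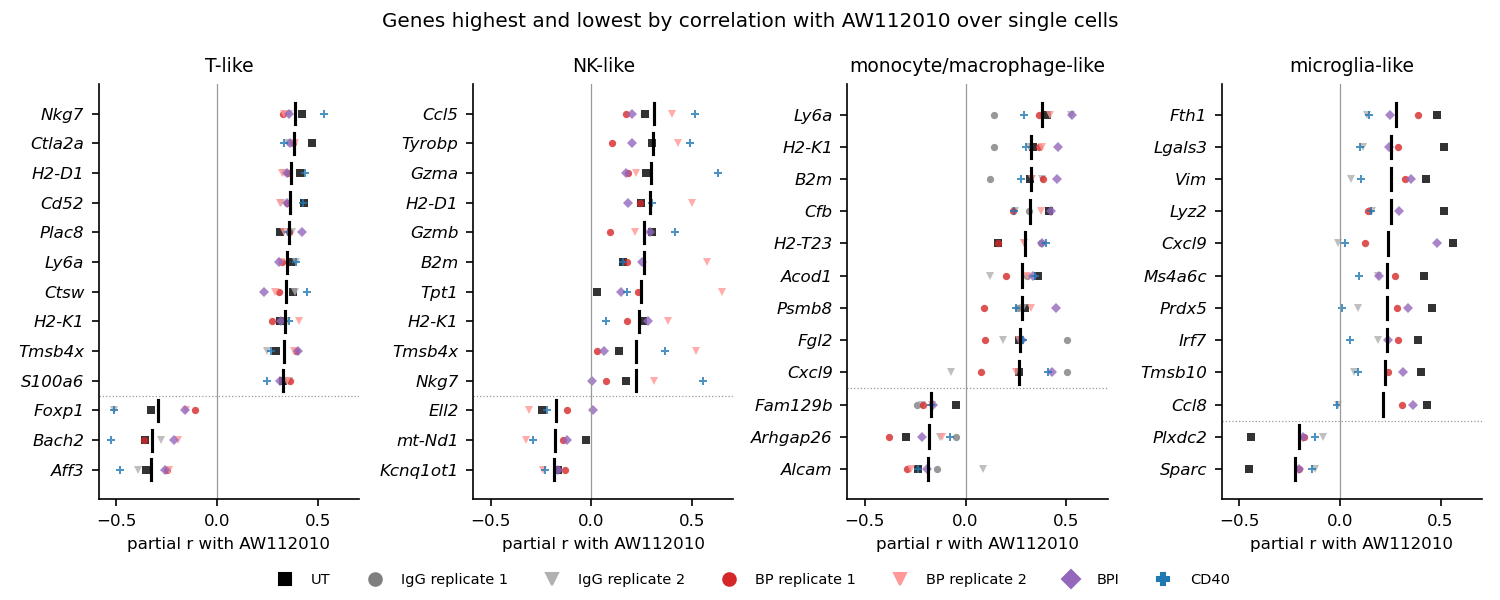
Partial correlation with AW112010 over single cells (horizontal axis, r given UMIs per cell) for genes among the 10 highest and 3 lowest of each cell class. Points are libraries and the black line is their mean. Among monocyte/macrophage-like cells Ly6a is first with a mean of 0.381.

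The same relation was read without r, by the level of a gene in cells with and without a UMI of AW112010 after thinning, in libraries with at least 20 cells on each side. In monocyte/macrophage-like cells H2-Aa was higher in cells with the UMI in 4 of 4 libraries, at 5595 against 3946 CPM in UT and 3157 against 1745 in BPI. Cxcl9, the interferon-gamma-induced chemokine, was higher in 3 of 4, at 4001 against 1665 CPM in BPI and 1609 against 820 in UT, but 790 against 794 in BP replicate 1. Isg15 was higher in 4 of 4, Irf1, Gbp2, Cd274 and Ifit3 in 3, and the receptor genes Ifngr1 and Ifngr2 in 1.

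In T-like cells Isg15 and Ifit3 were higher in cells with the UMI in 5 of 5 libraries. Gbp2 was higher in 3 of 5, Irf1 in 2 and Cd274 in 1, so these 3 genes did not share 1 direction. Cxcl9 and H2-Aa were higher in 1, but Cxcl9 had no UMI on either side in 2 libraries and H2-Aa in 1. Cxcl9 had at most 5 UMIs on a side, and H2-Aa 0 against 1 UMI in BPI and CD40, too few to read a direction. Ifng was higher in 4 of 5, at 427 against 170 CPM in UT (92 and 10 UMIs) and 202 against 179 in BP replicate 1. In BPI it went the other way, with 586 CPM in the 447 cells with a UMI of AW112010 and 1483 CPM in the 147 without (261 and 218 UMIs of Ifng). By share of cells BPI had the direction of the other 4 libraries, since 23.3% of cells with the UMI of AW112010 and 15.6% of those without held an Ifng UMI. No test was made, because the cells of 1 library are not replicates.

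Microglia-like cells (2243 cells, 5 libraries, 3342 genes) followed a different set: Fth1 (0.279), Lgals3 (0.253), Vim (0.253), Lyz2 (0.253), Cxcl9 (0.238), Ms4a6c (0.235), Prdx5 (0.234), Irf7 (0.232), Tmsb10 (0.224) and Ccl8 (0.216). Lyz2 and Ms4a6c are markers used here for monocytes and macrophages, and the lowest genes included Sparc (-0.223), a microglia marker, and Plxdc2 (-0.201). The interferon-gamma list had 26 of 32 members above 0 and 9 above the 95th percentile (median 0.0475), beside 34.4% of all genes above 0. Whether cells of the other class within these clusters give this order was not tested. In tumour-like cells (31640 cells, 7 libraries) the highest gene, Cd74, had r of 0.0784, and 0.0127 after thinning, which is no finding in counts this sparse. The interferon-gamma list there had 20 of 20 members above 0 and 19 above the 95th percentile, with a median of 0.0388, beside 39.6% of all genes above 0. After thinning the r of its members lay between -0.00435 and 0.0196. Of the first 10 genes in tumour-like cells, 0 stayed among the first 10, so this count holds only for unthinned cells.

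Over the 55 sums of a class in a library with at least 20 cells, 12799 genes were ranked by how their log2(CPM + 1) followed that of AW112010. The chemokine gene Ccl5 was first, with Pearson r of 0.864 and Spearman rho of 0.881. In UT it was at 11492 CPM in NK-like, 1159 in T-like and 2857 in monocyte/macrophage-like cells. Its highest class mean was that of dendritic-like cells, 12441 CPM, so it is not particular to T-like and NK-like cells here. Crybg1 (0.827), Tes (0.824), the phosphatase Ptpn22 (0.823), Ms4a4b (0.821), Phf11c (0.820), the interferon-inducible Epsti1 (0.814), Shisa5 (0.811), the receptor Klrk1 (0.810) and the cytokine receptor chain Il2rg (0.807) completed the first 10. Gzmb had 0.753, Nkg7 0.745, Ifng 0.686, Irf1 0.570, Isg15 0.436 and Cxcl9 0.311. The points of a library share its depth and free RNA, and points of a class share its cell type.

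Of the genes within 250 kb, none followed AW112010 as closely. Gm28347, a lincRNA 9977 bases away on the same strand, had r of 0.512 on only 57 UMIs, and Cd6, a T cell surface protein gene 217554 bases away, had 0.510. Ms4a1, which encodes the B cell protein CD20, had 0.0322, the transporter gene Slc15a3 0.0502 and Tmem132a -0.613.

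The pathway around the gene was distributed over classes. Ifng was found in T-like cells at 287 CPM in UT, 57.3 and 87.7 in IgG, 338 and 405 in BP, 1580 in BPI and 37.2 in CD40. In NK-like cells Ifng ranged from 73.5 to 219 CPM, and in monocyte/macrophage-like cells it was at most 1.30 CPM. Il12b, the IL-12 subunit to which AW112010 has been linked, was low in monocyte/macrophage-like cells, at 4.40 CPM in UT, 0 in both IgG libraries, 0.116 and 26.1 in BP, 36.6 in BPI and 33.3 in CD40. CD40, low for AW112010, held 84 UMIs of Il12b, and BP replicate 1, high for AW112010, held 2. Il12b was 339 CPM in the dendritic-like cells of UT and 50.9 in those of BP replicate 1. Il10 was 1.97 to 11.4 CPM in monocyte/macrophage-like cells and 221 and 96.7 CPM in the regulatory T-like cells of UT and BP replicate 1.

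Treatment groups were compared with IgG within a class on summed UMIs in 1 edgeR model over 6 libraries. BPI and CD40 have 1 library each and took their spread from IgG and BP. Whether libraries came from separate experiments is not stated beyond the pooled mice, so the spread may be partly technical. AW112010 in monocyte/macrophage-like cells differed from IgG by 3.84 ± 0.65 (log2, SE) in BP, 5.12 ± 0.73 in BPI and 0.28 ± 0.72 in CD40. The CPM of each library, given above, do not overlap between IgG and BP or BPI, and CD40 lies within the IgG range. Among the 4645 genes of this class with a mean log2 CPM of at least 5, the difference ranked 32nd from the top for BP and 20th for BPI. Both BP libraries were above both IgG libraries for 13.7% of the 11582 genes tested, so lack of overlap alone is common, and BP, BPI, CD40 and UT were all above both for 3.61%, a pattern AW112010 does not show here.

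Markers of other classes moved with these monocyte/macrophage-like differences. Microglia markers summed to 1379 and 3010 CPM in the IgG libraries and 2053 in CD40, against 424 and 963 in BP, 622 in BPI and 769 in UT, so they were lower in each of the 4 libraries in which AW112010 was high. NK markers summed to 70.6 and 6.28 CPM in the IgG libraries and 6.73 in CD40. They summed to 105 and 169 in BP, 280.0 in BPI and 473 in UT, in the direction of AW112010. Klrk1, 1 of the 8 NK markers, was 468 CPM in UT and the whole sum in IgG replicate 2, where 7 were at 0. It averaged 155 CPM over the 7 libraries, so the sum reads mainly Klrk1, which itself followed AW112010 in these cells (mean r 0.185). T cell markers summed to 2.68 to 19.96 CPM. The part of any of these in the differences was not tested.

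In T-like cells the difference was 0.96 ± 0.48 in BP, 1.67 ± 0.56 in BPI and 0.72 ± 0.57 in CD40. The lowest treated library, CD40 at 1385 CPM, was above the higher IgG library at 1188 CPM, and its SE was nearly as large as its difference. Both BP libraries were above both IgG libraries for 26.6% of genes. BP, BPI, CD40 and UT were all above both IgG libraries for 14.5% of the 9169 genes tested. NK markers in T-like cells summed to 328 and 125 CPM in the IgG libraries and 433 and 500.3 in BP. The sum was 504 in BPI, 413 in CD40 and 503 in UT, so both IgG libraries were below the other 5. Klrk1 alone was 352 CPM of the sum in UT. Monocyte/macrophage markers summed to 1794 and 1528 CPM in IgG, 2366 and 3067 in BP, 3369 in BPI, 976 in CD40 and 3912 in UT, so IgG lay below BP, BPI and UT and above CD40. Microglia markers summed to 103 to 545 CPM, lowest in BP replicate 1 and highest in IgG replicate 2. The part of these markers in the differences was not tested.

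In microglia-like cells the difference was 3.38 ± 0.92 in BP, 3.73 ± 1.05 in BPI and 0.81 ± 1.03 in CD40. The BP value rests on BP replicate 1, since without it the difference was 0.80. Before correction for free RNA both BP libraries were above both IgG libraries, as for 14.7% of genes, and so were all of BP, BPI, CD40 and UT, as for 1.66%. BP replicate 2 held 5 UMIs and came to 0 CPM with free RNA subtracted, below the 2.92 and 4.92 CPM of the IgG libraries, so neither order holds after correction. NK markers in microglia-like cells summed to 4.72 and 2.71 CPM in the IgG libraries, 50.01 and 9.66 in BP, 64.2 in BPI, 3.45 in CD40 and 180 in UT. Of these 8 markers, Klrk1 alone averaged 52.1 CPM over the 5 libraries used for correlations, so the sum reads mainly Klrk1. In UT 5 of the 8 were at 0, and in BPI 4. Monocyte/macrophage markers summed to 1467 and 1334 CPM in IgG, 2130 and 863 in BP, 2402 in BPI, 1465 in CD40 and 4334 in UT, highest in the 3 libraries in which AW112010 was high. The part of either list in the differences was not tested.

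In tumour-like cells the difference was 4.81 ± 1.27, 4.34 ± 1.34 and 1.08 ± 1.32, on levels that free RNA could give in 4 of 7 libraries. Before correction the same orders held, as for 9.39% and 2.20% of genes. With free RNA subtracted BP replicate 2, BPI and CD40 came to 0 CPM, below the 0.0779 CPM of IgG replicate 2, so neither order holds after correction. In these cells monocyte/macrophage markers summed to 1656 and 566 CPM in the IgG libraries, 2531 and 2002 in BP, 3364 in BPI, 487 in CD40 and 4107 in UT. NK markers summed to 0.323 to 5.91 CPM, T cell markers to 0.733 to 7.58 and microglia markers to 118 to 274. The part of these in the differences was not tested. NK-like cells were not fitted, because IgG replicate 2 had 16 of them and at least 20 in each library were asked for. The range over the treated libraries, 2839 to 4992 CPM, spans the 3531 CPM of IgG replicate 1.

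**Figure D4:**
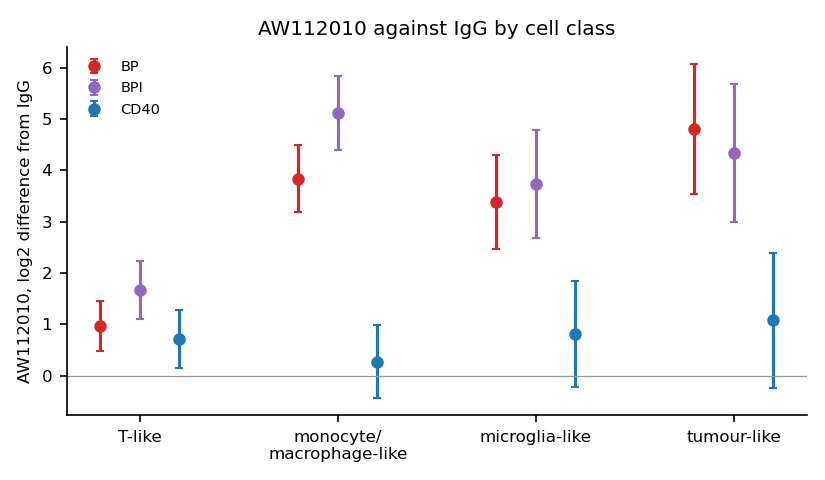
Log2 difference of AW112010 from IgG (vertical axis) in BP, BPI and CD40 for 4 cell classes, with bars of 1 SE from the edgeR fit over 6 libraries. The monocyte/macrophage-like values of BP and BPI lie at 3.84 and 5.12 and CD40 at 0.28.

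The labels give each library a name with a running number, and IgG replicate 1, BP replicate 2 and BPI carry consecutive numbers, as do CD40 and IgG replicate 2. Within the first set, monocyte/macrophage-like cells had 5.45 times the AW112010 level of IgG replicate 1 in BP replicate 2 and 18.5 times in BPI. T-like cells had 1.67 and 2.00 times and NK-like cells 1.21 and 1.41 times. Within the second set CD40 had 1.67 times the level of IgG replicate 2 in monocyte/macrophage-like and 3.03 times in T-like cells. The treated library was higher in every one of these pairs, and the pairs rest on 1 library a side. BPI against BP replicate 2, which differ by IPI-145 and share that set, stood at 3.40 times in monocyte/macrophage-like cells and 1.20 times in T-like cells, with BP replicate 1 (1072 CPM in monocyte/macrophage-like cells) close to BPI (1245 CPM).

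Genes of the interferon-gamma response were then counted as the pathway's other members. The list was drawn up with results of these libraries known, so its direction is no independent evidence, and genes that passed the filter only through a group in which they are high had to differ. Of the 40 genes, 38 in monocyte/macrophage-like cells passed the filter on low counts and 0 were called at an adjusted p under 0.05 (edgeR's quasi-likelihood test, Benjamini-Hochberg) in BP, BPI or CD40, where 0% of all 11582 genes were called. At an unadjusted p under 0.05, 32 of 38 were higher in BP, 38 in BPI and 1 in CD40, beside 4.84%, 7.85% and 0.475% of all genes. The smallest adjusted p of the list was 0.223 in BP and 0.0580 in BPI by edgeR's quasi-likelihood test. The median log2 difference was 2.52 in BP, 3.45 in BPI and -0.18 in CD40, against 0.04, -0.01 and -0.01 over all genes. DESeq2 called 17 of the list in BP, 27 in BPI and 0 in CD40, beside 0.907%, 1.58% and 0.0345% of all genes. Without BP replicate 2 edgeR called 25 of 39 in BP and 34 in BPI (541 and 545 of 11967 genes in all), and without IgG replicate 1 it called 7 and 21 (61 and 166 of 11901).

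Examples in these cells, none of them past the adjusted threshold, were Cd274 (3.22 ± 0.53 in BP, 4.03 ± 0.59 in BPI), Irf1 (2.86 ± 0.52 and 3.36 ± 0.57) and the class II chain H2-Aa (3.95 ± 0.78 and 3.83 ± 0.84). Gbp2, a guanylate-binding protein gene, stood at 3.98 and 5.03, and the receptor gene Ifngr1 at 0.01 in BP. The type I interferon list had medians of 1.04, 2.24 and -2.51, with 13 of 23 lower in CD40 at an unadjusted p under 0.05, beside 0.423% of all genes. Isg15, a type I target, was at 0.72 ± 0.96 in BP and -3.81 in CD40, and Ifit3 at 0.66 and -4.07. The IgG libraries themselves differed on this list, with a sum of 8846 CPM in replicate 1 and 1809 in replicate 2. CD40 had 1123 CPM, far below IgG replicate 1 and nearer to IgG replicate 2. How far the CD40 differences rest on IgG replicate 1 was not tested.

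In T-like cells 32 of the 40 passed the filter. Cd74, the class II invariant chain, was called higher in BP (4.29 ± 1.003, adjusted p = 0.0116) and CD40 (5.15 ± 1.015, adjusted p = 0.00683), and Irf8 (2.80 ± 0.63, adjusted p = 0.00784) and Cxcl10 (2.34 ± 0.63, adjusted p = 0.0487) in BPI, by edgeR's quasi-likelihood test with Benjamini-Hochberg adjustment. That is 1, 1 and 2 members of 32, where 0.698%, 0.0654% and 0.513% of all genes were called higher. At an unadjusted p under 0.05, 9, 3 and 13 members were higher in BP, CD40 and BPI, beside 5.73%, 2.75% and 4.84% of genes. Cd74 and Irf8 are strongly expressed by antigen-presenting cells, and monocyte/macrophage markers summed to 976 to 3912 CPM in T-like cells. The lowest sum was that of CD40, below the 1794 and 1528 CPM of IgG. Cd74 differed more in CD40 than in BP. Plac8, a marker on that list, averaged 597 CPM in the T-like cells used for correlations. Irf8 averaged 915 CPM in the NK-like and 328 in the monocyte/macrophage-like cells used for correlations. NK markers in T-like cells summed to 504 CPM in BPI, against 328 and 125 in IgG. The part of antigen-presenting or NK cells in the calls was not tested. With free RNA subtracted, the log2 difference of Cd74 was 3.75 in BP (adjusted p = 0.139) and 5.11 in CD40 (adjusted p = 0.0567) and that of Cxcl10 2.24 in BPI (adjusted p = 0.164) by edgeR, so these calls were lost on folds of similar size, while Irf8 was still called (2.77, adjusted p = 0.0210). DESeq2 called none of the 3, with Cd74 at 4.16 in BP and 5.09 in CD40, Cxcl10 at 2.25 and Irf8 at 2.68. The sizes depended on single libraries. Cd74 in BP was 10.63 without IgG replicate 1, 2.93 without IgG replicate 2 and 2.23 without BP replicate 1. In CD40 it was 11.49 without IgG replicate 1 and 3.79 without IgG replicate 2, and Irf8 in BPI was 5.15 and 1.67. Ifng was called higher in T-like cells of BP (2.16 ± 0.50, adjusted p = 0.0109) and BPI (4.49 ± 0.56, adjusted p = 6.31e-09) by edgeR's quasi-likelihood test.

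Among the T and NK effector genes, some passed the test in BP and BPI. By edgeR's quasi-likelihood test 2 of 11 were called higher in BP, Gzmb (2.80 ± 0.49) and the chemokine Ccl3 (3.10 ± 0.68), and 4 of 11 in BPI, Gzmb (3.73), Ccl3 (5.31), Ccl4 (3.00) and perforin, Prf1 (2.06). Of the 8 resting T cell genes 4 were called lower in BP, among them Dapl1 (-3.38), S1pr1 (-2.31) and Lef1 (-1.72), and Dapl1 in BPI (-4.23) and CD40 (-2.91). In all, 9 members of the 6 lists were called in BP, 9 in BPI and 2 in CD40. DESeq2 called 3 of those 9 in BP (Gzmb, Ifng and Dapl1), 5 in BPI (the same and Ccl3 and Il12rb2) and 0 of 2 in CD40, beside 0.0545%, 0.164% and 0% of all genes. Without IgG replicate 2 edgeR called 1, 3 and 1 of them, without IgG replicate 1 5, 7 and 1, and with free RNA subtracted 6, 7 and 0. Gzmb and Ifng in BP lost their calls when either IgG library was left out, on differences of similar size. These were 2.97 and 1.86 without IgG replicate 1, and 2.61 and 2.62 without IgG replicate 2. Ccl3 moved more, to 11.46 in BP and 13.67 in BPI without IgG replicate 1. Without IgG replicate 2 Ccl3 stood at 1.76 and 3.97. With UT counted with IgG edgeR called none of them, and in BP Gzmb stood at 0.48, Ccl3 at 0.10 and Cd74 at 0.09. Others kept larger differences in that fit. Dapl1 stood at -2.68 in BP and -3.52 in BPI, Ifng at 1.16 and 3.48, and Il12rb2 at 2.19 in BPI. The background is 0.851% of genes called in either direction in BP, 0.578% in BPI and 0.0873% in CD40.

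In microglia-like cells 0 of 39 list members were called by edgeR, beside 0% of 12426 genes, and 31, 30 and 1 were higher at an unadjusted p under 0.05 in BP, BPI and CD40, beside 2.56%, 1.59% and 0.161% of genes. The median log2 difference was 2.50 in BP, 2.68 in BPI and 0.00 in CD40. Without BP replicate 2 edgeR called 33, 29 and 3 of 39 (882, 160 and 10 of 13336 genes), and without BP replicate 1 4, 22 and 0 of 36 (8, 79 and 0 of 9506). In tumour-like cells 0 of 40 were called, beside 0% of 20350 genes, and 29, 12 and 0 were higher at the unadjusted threshold, beside 1.70%, 0.757% and 0.0246%. DESeq2 called 14 and 6 in microglia-like cells for BP and BPI, beside 0.346% and 0.161% of genes, and 10 and 2 in tumour-like cells, beside 0.231% and 0.0393%. T-like markers in microglia-like cells summed to 3.74 to 98.1 CPM, highest in UT.

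Set side by side, the level of AW112010 and the summed interferon-gamma response list put the libraries in nearly the same order within monocyte/macrophage-like cells. The list summed to 62657 CPM in UT, 46641 in BP replicate 1, 41600 in BPI, 26845 in BP replicate 2, 10392 in IgG replicate 1, 9768 in CD40 and 4800 in IgG replicate 2. AW112010 followed that order except that BPI and BP replicate 1 changed places. The sum reads mainly a few abundant genes of antigen presentation. In UT these were Cd74 (15937 CPM), H2-D1 (10476), H2-Ab1 (6863), H2-Aa (6686) and H2-K1 (4295). The type I list gave another order, with 17290 CPM in UT, 15917 in BPI, 10916 in BP replicate 2, 8846 in IgG replicate 1, 5130 in BP replicate 1, 1809 in IgG replicate 2 and 1123 in CD40. IgG replicate 1 had more of the type I list than BP replicate 1 and far less AW112010, 67.1 against 1072 CPM. Whether AW112010 depends on either list was not tested.

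In tumour-like cells the interferon-gamma list reached 15911 CPM in UT and 12794 in BP replicate 1, more than the 10392 CPM in the monocyte/macrophage-like cells of IgG replicate 1. AW112010 was 19.4 and 11.1 CPM in those tumour-like cells against 67.1 CPM in those myeloid cells. In T-like cells the list ranged only from 6615 to 17140 CPM, in the libraries IgG replicate 2 and UT, which were also the lowest and the highest for AW112010.

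**Figure D5:**
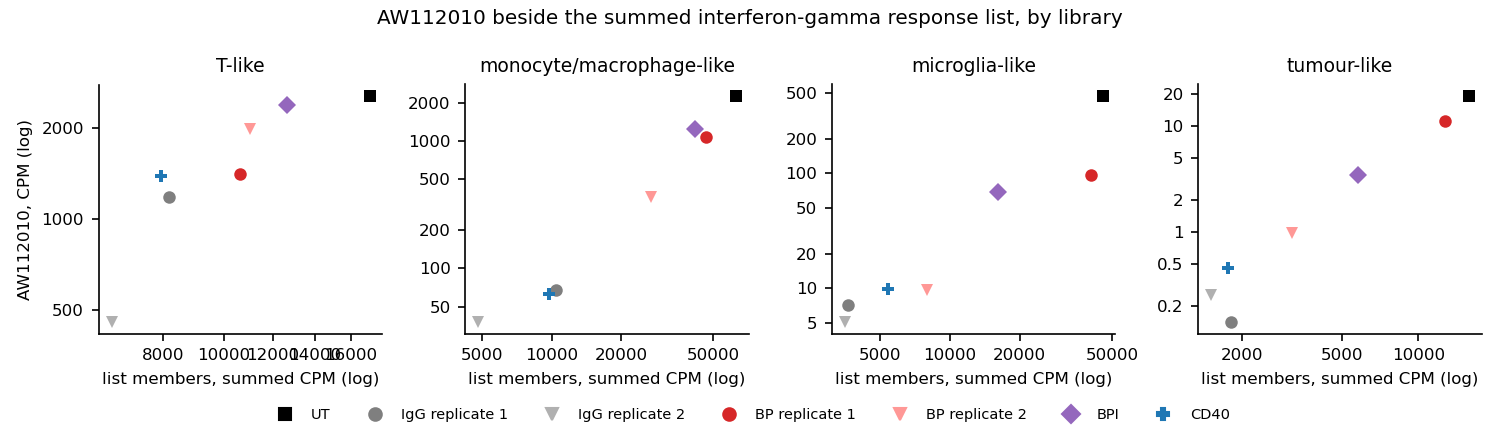
AW112010 (vertical log axis, CPM) against the summed interferon-gamma response list (horizontal log axis, CPM), 1 point per library, in a panel for each of 4 cell classes. In monocyte/macrophage-like cells UT lies at 62657 and 2267 CPM and IgG replicate 2 at 4800 and 37.7 CPM.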

How the data were processed

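Groups were taken from the sample titles, and a pooled library counted as 1 replicate. The matrices deposited by the authors hold raw UMI counts for every gene in every listed barcode, cells or not. Per the file headers Cell Ranger 4 wrote them, while the submitters' processing notes name version 7.0.1 (build mm10). Cells were barcodes of 1000 UMIs or more and 500 genes or more with no more than 15% mitochondrial UMIs (scanpy 1.11.5, python 3.11.15). The highest Scrublet scores, 0.8% per 1000 cells, were removed as doublets. Counts were scaled to 10000 per cell, 2000 variable genes, 30 principal components and 15 neighbours gave Leiden clusters at resolution 1, and clusters were named from 21 marker lists. Levels are UMIs of the gene per 1000000 UMIs of the class (CPM), for classes with at least 20 cells in a library. Exact 95% intervals (Poisson for counts, Clopper-Pearson for shares) cover counting error only. Shares of cells were read after thinning each cell to 1000 UMIs. Correlations used libraries with at least 50 cells, 10 of them with the gene, and genes of at least 50 CPM, on log2(counts per 10000 + 1).

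Summed counts were tested with edgeR 4.0.16 (quasi-likelihood, TMM, filterByExpr, R 4.3.3) without a replicate block, adjusted by Benjamini-Hochberg over all genes tested, with DESeq2 1.42.0 as an alternative. UT was left out of the fits. The edgeR test of BP against IgG was checked on simulated counts in each class fitted. The BPI and CD40 comparisons and the DESeq2 tests were not checked in this way. The genes named are AW112010, the 10 highest and 3 lowest by correlation in a class, the 10 most like it over class sums, its neighbours within 250 kb, a set of interferon and cytokine genes, and members of 6 gene lists; some of these genes are not reported here. The gene and the lists were chosen with earlier results of these data known. Other alternatives were the filter, UT counted with IgG, free RNA subtracted, and leaving out each replicate. The replicate numbers of IgG and BP did not pair the libraries. The other tumour model of the series was not analysed here.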

Additional observations from a re-analysis of the deposited data

Results flagged for a closer look

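AW112010 in UT stood above both IgG libraries in the 4 classes compared, in a library that enters no fit. It was 2551 CPM in T-like cells, where the higher IgG library had 1188. Monocyte/macrophage-like cells had 2267 CPM, and at most 67.1 in IgG. It was 476 CPM in microglia-like cells against 7.08, and 19.4 CPM in tumour-like cells against 0.257. UT and IgG are both labelled as controls. UT is 1 library with another barcode list, so its group and its chemistry cannot be told apart, and the difference was not tested.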

How the results depend on the processing

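The number of interferon-gamma response genes called depended on the test. In T-like cells it was 1 in BP, 2 in BPI and 1 in CD40 as reported. It was 0, 1 and 0 with DESeq2 (5, 15 and 0 calls over 9169 genes) and 0 in each with UT counted with IgG. Without the filter on low counts it was 3, 3 and 2 (118, 72 and 13 calls over 19898 genes). With free RNA subtracted, an alternative chosen after seeing the data, it was 0, 1 and 0 (66, 42 and 1 calls over 9075 genes). In the other 3 classes it was then 0. In monocyte/macrophage-like cells it was 0 as reported, 17 in BP and 27 in BPI with DESeq2 (105 and 183 calls over 11582 genes), and 28, 35 and 1 without the filter (428, 600 and 38 calls over 21243 genes) in BP, BPI and CD40. In microglia-like cells DESeq2 called 14 and 6 (43 and 20 calls over 12426 genes). The unfiltered fit called 29, 26 and 2 there (309, 126 and 33 calls over 22096 genes). In tumour-like cells DESeq2 called 10 and 2 (47 and 8 calls over 20350 genes). Leaving out 1 replicate at a time gave 0 to 5, 0 to 3 and 0 to 2 in T-like cells (BP, BPI, CD40), 0 to 25 and 0 to 34 in monocyte/macrophage-like cells. For microglia-like cells the ranges were 0 to 33, 0 to 29 and 0 to 3. The highest of each came without BP replicate 2, and in T-like cells of BPI and CD40 also without BP replicate 1. In tumour-like cells no replicate left out gave a call. The cause was not tested.

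The log2 difference of AW112010 in T-like cells with UT counted with IgG was 0.20 in BP, 0.91 in BPI and -0.05 in CD40. It was -0.43, 0.84 and -4.01 in monocyte/macrophage-like cells. For microglia-like cells it was -1.76, -1.31 and -4.29, and for tumour-like cells -0.20, -0.66 and -3.92, a change made by adding the high UT library to the controls. With free RNA subtracted, tumour-like cells gave 6.37, -4.84 and -4.84, where little or no count of the gene was left. Over replicates left out, the difference was 0.46 to 1.69, 1.16 to 2.39 and 0.21 to 1.44 in T-like cells, 3.02 to 4.34, 4.71 to 5.61 and -0.13 to 0.76 in monocyte/macrophage-like cells, where -0.13 came without IgG replicate 2. It was 0.80 to 4.14, 3.45 to 3.89 and 0.52 to 0.93 in microglia-like cells, and 2.42 to 5.65, 4.04 to 4.75 and 0.78 to 1.49 in tumour-like cells, with 0.80 and 2.42 both without BP replicate 1. Of 52 other alternatives for these differences 37 stayed within 1 SE with the same sign.

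IgG and BP share replicate numbers, but same-numbered libraries did not deviate together (r of -0.05 in T-like, -0.19 in monocyte/macrophage-like, 0.02 in microglia-like and -0.66 in tumour-like cells). The negative r in tumour-like cells means that IgG replicate 1 deviated there with BP replicate 2, and IgG replicate 2 with BP replicate 1. IgG replicate 1 and BP replicate 2 also had 3 of 11 tumour markers at 20 CPM and carry consecutive library numbers. What the libraries of such a set share was not tested, and the reported fit has no term for it. With a replicate block, the BP count of called list genes was 0 in T-like cells, 26 in monocyte/macrophage-like and 2 in microglia-like cells, and calls over all genes were 0, 212, 6 and 0 in the 4 classes. A crossed pairing, chosen after seeing the data, gave 0, 29 and 1 list genes in T-like, monocyte/macrophage-like and tumour-like cells, and 100, 513, 0 and 8 calls over all genes.

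Mean levels moved beyond 1 SD in 3 cases: dendritic-like cells at 984 CPM and plasmacytoid dendritic-like cells at 233 CPM with doublets kept, and conventional CD4 T-like cells at 996 CPM from sub-clusters in place of gates. Over replicates left out, means were 3750 to 4280 CPM in NK-like, 1470 to 1810 in T-like, 475 to 847 in monocyte/macrophage-like and 32.7 to 111 in microglia-like cells, the lowest of the last without UT. The share of cells with a UMI depends on depth: without thinning the mean was 98.1% in NK-like, 81.0% in T-like, 18.4% in microglia-like, 53.2% in endothelial-like, 43.0% in B-like, 90.1% in dendritic-like, 13.2% in plasmacytoid dendritic-like and 8.01% in tumour-like cells. At 2000 UMIs it was 98.9% in NK-like, 79.2% in T-like, 23.3% in B-like and 79.6% in dendritic-like cells. With cells thinned, r of Nkg7 in T-like cells was 0.209. Pooled mice and 1 library in BPI and CD40 limit the differences, and few cells in the IgG libraries limit T subsets and the differences themselves. Monocyte/macrophage-like cells numbered 76 in IgG replicate 1 and 60 in IgG replicate 2, of which 15 and 21 held a UMI of the gene, against 1762 cells in BP replicate 1. IgG replicate 2 had 57 T-like cells.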

Other observations

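Endothelial-like cells, which line blood vessels, held 18.3% of the AW112010 UMIs of IgG replicate 2 and 8.32% of those of CD40, but 0.169% of those of IgG replicate 1, on 13 cells. In IgG replicate 2 they had 39.6 CPM in 97 cells, close to the 37.7 CPM of monocyte/macrophage-like cells there, and free RNA accounted for an estimated 0.434% of it. In CD40 they had 61.9 CPM in 183 cells beside 63.0 CPM in monocyte/macrophage-like cells, with an estimate of 0.679%. In BPI they had 346 CPM in 24 cells, of which free RNA could give 33.2%.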
